A study of Mus musculus with 12 samples.

Results

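The NRF2 and antioxidant enzyme genes described here are 10 genes, namely Nqo1, Hmox1, Gclc, Gclm, Txnrd1, Srxn1, Sod1, Sod2, Sod3 and Cat. They were taken by name from the 26921 genes of the raw count table. Ensembl identifiers were matched to the symbols of GENCODE M21 on GRCm38. The rule used no expression value, but the genes were chosen with earlier results of these data known. Sequencing covered 12 libraries of left ventricular RNA (heart, in the labels) from mice aged 16 weeks, 6 of them WT and 6 cmGch1 KO. Both groups carried loxP-flanked alleles of Gch1, the gene of GTP cyclohydrolase 1. The WT mice were littermates with Gch1 flox/flox alleles and no Cre. The cmGch1 KO mice carried in addition 1 copy of a Cre transgene under the α-MHC promoter, whose activity is restricted to cardiomyocytes, so this design leaves Gch1 intact in the other cells of the ventricle. Mice with Cre and unfloxed Gch1 were not among these libraries, so the presence of Cre and the loss of Gch1 cannot be told apart.

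Gch1 makes the first, rate-limiting step in the synthesis of tetrahydrobiopterin, the cofactor that keeps nitric oxide synthases producing nitric oxide. When the cofactor is short these enzymes can release superoxide in place of nitric oxide, which is why oxidant defence is a question for this model. NRF2, encoded by Nfe2l2, is a transcription factor that KEAP1 holds in the cytoplasm and marks for degradation. Oxidants and electrophiles modify KEAP1, and NRF2 then enters the nucleus, pairs with a small MAF protein and binds antioxidant response elements before genes such as Nqo1, Hmox1, Gclc, Gclm, Txnrd1 and Srxn1. Superoxide dismutases and catalase act directly on superoxide and on hydrogen peroxide, and they answer to several transcription factors besides NRF2.

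The core letters of the antioxidant response element, TGACNNNGC, are shown where they occur in the promoters of the 10 genes, since NRF2 acts through them. RefSeq promoters on GRCm38.p6 were found for 7 of the 10 genes, with 9 start sites between them, and the 250 bases before each start were searched on both strands. The letters were found before Gclm, before the second of 3 starts of Txnrd1, and before Sod1. Each stretch below runs 5′ to 3′ on the strand of its gene, with 15 bases on either side of the match in capitals, which holds the element on the opposite strand and therefore as its reverse complement. The first stretch is chr3:122245408-122245446, with the match 134 to 126 bases before the start. The second is chr10:82859099-82859137, inside the span of the gene, with the match 92 to 84 bases before that start. The third is chr16:90220691-90220729, with the match 56 to 48 bases before the start.
Gclm: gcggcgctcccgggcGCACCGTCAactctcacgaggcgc
Txnrd1: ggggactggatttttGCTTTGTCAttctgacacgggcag
Sod1: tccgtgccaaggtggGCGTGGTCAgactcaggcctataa
The same letters stood in 10.2% of all 32851 promoters of this length, so a match is no proof of a site. Srxn1 had no match, and its promoter held 2 copies of the 7 letters TGACTCA or TGAGTCA, the AP-1 element that resembles the first part of the antioxidant response element and was found in 4.46% of promoters. Nqo1, Sod2 and Cat had neither in these windows. Hmox1, Gclc and Sod3 had no promoter entry and were not searched, so nothing can be said of the letters before them.

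All 10 genes lay above the limit for testing, with Hmox1 nearest to it at 5.02 cpm in WT replicate 5. Totals lay between 22356463 and 37917806 counts in WT libraries and between 19921398 and 35480715 in cmGch1 KO libraries, and 11225 genes were tested, namely those whose cpm (reads of a gene scaled by the library's size) exceeded 3 in no fewer than 6 libraries. Each of the 10 genes passed that limit in all 12 libraries, with the fewest counts for Hmox1 (158 to 436 per library) and the most for Sod2 (12533 to 22320). Gch1 itself was checked first. It had 10.7 ± 0.979 cpm in WT against 5.51 ± 0.859 cpm in cmGch1 KO (SD, n = 6 each), 51.4% of the WT level (95% interval 43.5 to 60.9%, FDR = 6.88e-04), and the groups did not overlap. A pair of libraries stood apart from the rest. cmGch1 KO replicates 2 and 3 had 87.1 and 99.6 cpm of Xist, the RNA of the inactive X chromosome, and no count of 4 Y-linked genes, whereas the other 10 libraries had at most 0.235 cpm of Xist and 167.8 to 193.3 cpm of Y-linked RNA. The same 2 libraries had the lowest share of counts from mitochondrial genes, 14.9% and 16.1%, against 18.3 to 22.9% in the others. Xist with no Y-linked RNA, as in this pair, is the pattern of female tissue, and the other 10 libraries had the male pattern. The labels give no sex. The methods of the study say that mice were matched for sex and that, unless stated otherwise, both sexes were used. All 6 WT libraries had the male pattern, so sex as read from these RNAs was not balanced between the genotypes. Values without this pair are given beside the antioxidant genes and beside other results that moved without it.

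Compared per kilobase of the principal transcript, Sod1, Sod2 and Cat were the most abundant of the 10 genes in the WT ventricle, and the glutathione-synthesis genes the least. Cytosolic Sod1 had 235.6 ± 25.9 cpm per kilobase in WT (SD, n = 6), mitochondrial Sod2 107.3 ± 1.63 and peroxisomal Cat 80.8 ± 3.39. Nqo1 followed with 35.7 ± 4.26 and Txnrd1 with 21.4 ± 1.33 cpm per kilobase. Each of these steps was larger than the spread of the WT libraries, whose ranges did not overlap between neighbours down to Sod3. The remaining levels were 10.3 for Sod3, 8.68 for Srxn1, 5.32 for Hmox1, 4.92 for Gclm and 4.29 for Gclc, and here the WT range of every gene overlapped that of the next. The place of Sod1 depended on the length used. Over all of its annotated exons, which include a long transcript with a retained intron, Sod1 had 38.0 cpm per kilobase and came after Cat (80.8) and Sod2 (62.8).

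**Figure D1:**
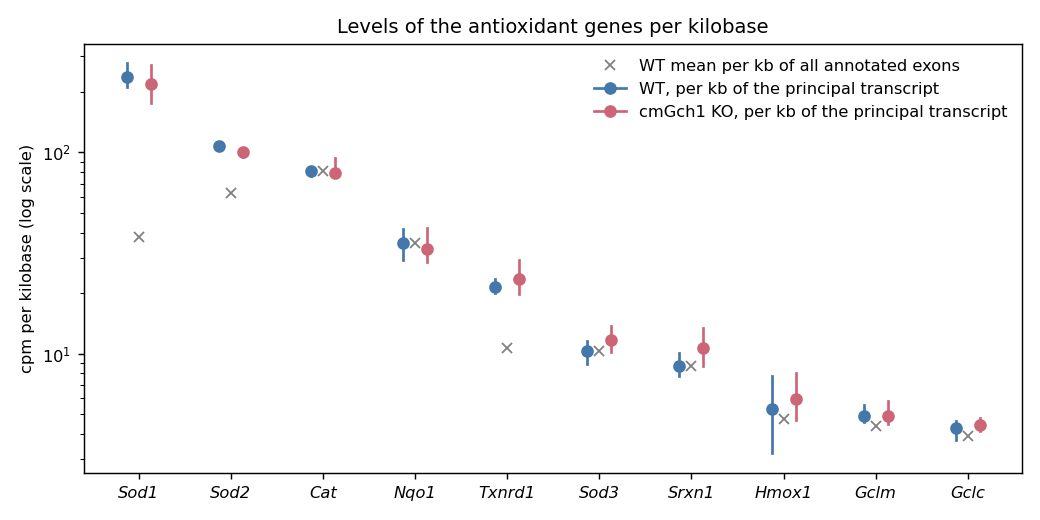
Level of each gene in cpm per kilobase of the principal transcript (log scale), with circles for the mean of 6 WT (blue) and 6 cmGch1 KO libraries (red), lines for the lowest to highest library, and crosses for the WT mean per kilobase of all annotated exons. The levels fall from 235.6 for Sod1 to 4.29 for Gclc in WT, the 2 groups lie close together at each gene, and Sod1 drops to 38.0 when all its exons are counted.

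The question put to the data was whether the antioxidant genes differed between cmGch1 KO and WT ventricles. No member was called: 0 of 10 passed an FDR of 0.05 by edgeR's quasi-likelihood test, where 1.12% of all tested genes did (0.445% lower and 0.677% higher), and DESeq2 and limma called 0 as well. By the unadjusted p, 1 of the 10 was under 0.05, Srxn1, with a higher mean in cmGch1 KO, against 11.5% of all tested genes (4.51% lower and 7.01% higher). The members were evenly divided, 5 with a lower and 5 with a higher mean, where 46.7% of all tested genes had a higher mean. Their median log2 fold change was 0.02 against -0.01 over all tested genes. Leaving out the pair with high Xist, 3 were lower and 7 higher, with a median of 0.04. Precision differed between the genes. The 95% interval of the cmGch1 KO level ran from 89.0 to 111.7% of WT for Gclm and from 83.9 to 151.1% for Hmox1. A p above the threshold does not show that the groups were alike, and these intervals give the differences that remained possible. The p-values measure the spread between libraries, since the labels do not say that each came from another mouse, although the methods of the study count single animals.

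**Figure D2:**
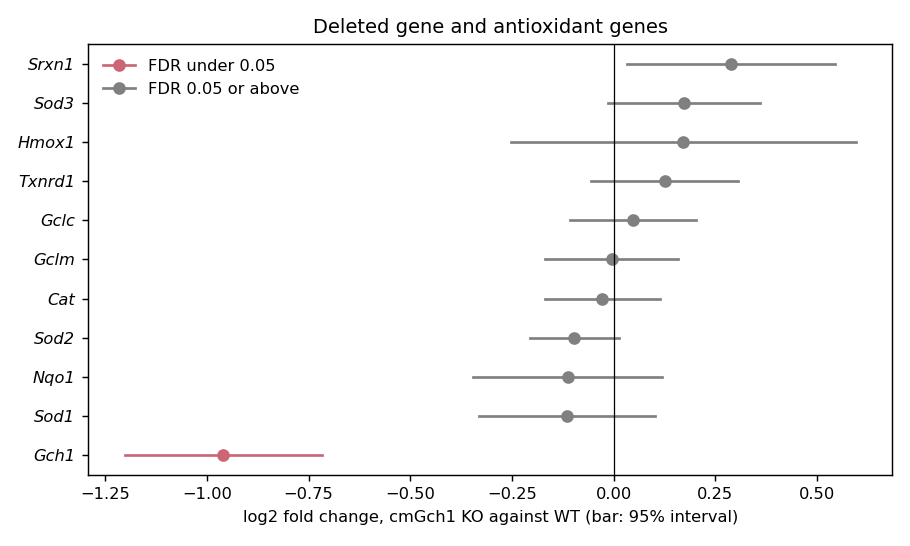
Log2 fold changes (cmGch1 KO over WT) for the deleted gene Gch1 and the 10 antioxidant genes, with 95% intervals from edgeR and red for an FDR under 0.05. Gch1 lies at -0.96, and the antioxidant genes lie between -0.11 for Sod1 and 0.29 for Srxn1, with Srxn1 the 1 gene among them whose interval does not reach 0.

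Of the classical NRF2 targets, neither Nqo1 nor Hmox1 passed the test. Nqo1 encodes a quinone reductase that uses NAD(P)H to reduce quinones without forming radicals. Its lowest, median and highest WT libraries had 45.6, 54.2 and 64.4 cpm, and the cmGch1 KO libraries 44.4, 49.1 and 65.5 cpm. The groups overlapped over nearly their whole range, with 3 cmGch1 KO libraries just under the lowest WT library and 1 just over the highest. The cmGch1 KO level was 92.5% of WT (95% interval 78.7 to 108.7%, log2 fold change -0.11 ± 0.11 SE, FDR = 0.798). The pair with high Xist made up 2 of the 3 libraries under the WT range, and the log2 fold change was -0.03 without it and -0.02 in a fit with a covariate for sex-linked expression. Hmox1 encodes the inducible haem oxygenase, which breaks haem down to biliverdin, carbon monoxide and iron. It was the most variable of the 10 genes between libraries of 1 genotype, with a coefficient of variation of 30.8% in WT and 22.0% in cmGch1 KO. WT libraries ran from 5.02 over a median of 7.97 to 12.2 cpm and cmGch1 KO libraries from 7.36 over 8.62 to 12.6 cpm. This put cmGch1 KO at 112.6% of WT (83.9 to 151.1%, FDR = 0.842), a difference smaller than the spread within either group. Its log2 fold change of 0.17 was 0.08 without the pair with high Xist, and leaving out single libraries moved it between 0.06 (without WT replicate 5) and 0.31 (without WT replicate 4), with 0.07 without cmGch1 KO replicate 2.

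The glutathione-synthesis genes were nearly level between the genotypes. Gclc encodes the catalytic and Gclm the modifier subunit of glutamate-cysteine ligase, which makes the rate-limiting step of glutathione synthesis. Gclc had 12.7, 15.01 and 15.9 cpm in its lowest, median and highest WT library and 14.1, 15.1 and 16.4 cpm in cmGch1 KO. Gclm had 25.6, 27.1 and 31.1 cpm in WT against 25.1, 26.4 and 32.4 cpm in cmGch1 KO. The cmGch1 KO level was 103.4% of WT for Gclc (92.9 to 115.2%, FDR = 0.893) and 99.7% for Gclm (89.0 to 111.7%, FDR = 0.994). Without the pair with high Xist the log2 fold changes were 0.07 in place of 0.05 for Gclc and 0.04 in place of -0.0045 for Gclm. The ratio of Gclm to Gclc cpm within a library had a median of 1.88 in WT (1.75 to 2.01) and of 1.75 in cmGch1 KO (1.61 to 2.14). These ranges overlapped. The ratio is not corrected for length, so it compares the libraries and not the amounts of the 2 mRNAs. The principal transcript is 5589 bases long for Gclm and 3423 for Gclc, and per kilobase the WT means were 4.92 and 4.29 cpm. Exons of Gclm share 244 bases with the pseudogene Gm6061 on the same strand, so its counts are the less certain of this pair.

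The thioredoxin branch held the widest difference among the 10 genes. Srxn1 encodes sulfiredoxin, which repairs peroxiredoxins that peroxide has over-oxidised, and Txnrd1 encodes the cytosolic thioredoxin reductase, which passes electrons from NADPH to thioredoxin. Srxn1 had 21.8, 23.9 and 28.3 cpm in the lowest, median and highest WT library and 24.4, 29.3 and 37.6 cpm in cmGch1 KO. Among the cmGch1 KO libraries, replicates 1, 2 and 3 had 33.5, 37.6 and 33.3 cpm, all above the highest WT library. Replicates 4, 5 and 6 had 24.4, 25.3 and 25.1 cpm, inside the WT range. For Srxn1 the mean of cmGch1 KO was thus 122.1% of WT (102.3 to 145.8%, log2 fold change 0.29 ± 0.12 SE, unadjusted p = 0.03, FDR = 0.345). Replicates 2 and 3, but not replicate 1, are the pair with high Xist and a low mitochondrial share. Without them the log2 fold change of Srxn1 was 0.15 (FDR = 0.969, with 0.0695 to 0.969 over all 22 alternatives), and a fit with a covariate for sex-linked expression gave 0.16 (FDR = 0.912). The unadjusted p also rose above 0.05, to between 0.0605 and 0.0873, when any 1 of WT replicates 3, 5 and 6 or cmGch1 KO replicates 1, 2 and 3 was left out. Txnrd1 had 70.8, 75.8 and 83.1 cpm in WT against 69.7, 81.0 and 102.8 cpm in cmGch1 KO, 109.1% of WT (96.2 to 123.7%, FDR = 0.656). Its highest value came from cmGch1 KO replicate 2, and its log2 fold change of 0.13 was 0.04 without the pair with high Xist.

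**Figure D3:**
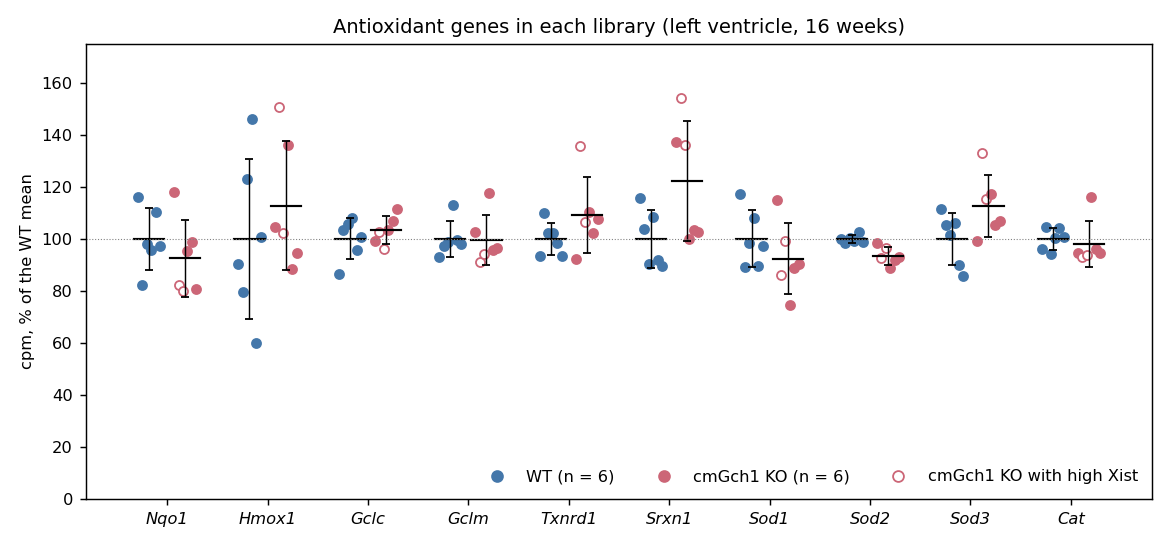
The 10 antioxidant genes in each library, in cpm as a percent of the gene's WT mean, with 1 point per library (6 WT in blue, 6 cmGch1 KO in red, open circles for the pair with high Xist) and bars for the mean and SD of each group. The groups overlap at 9 of the 10 genes, Hmox1 has the widest spread, Srxn1 of cmGch1 KO splits into 3 libraries above all WT libraries and 3 inside their range, and at Sod2 all cmGch1 KO points lie just under the narrow WT group.

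The 3 superoxide dismutases, which turn superoxide into hydrogen peroxide in different places, did not pass the test either. Sod2, the manganese enzyme of the mitochondrial matrix, was the 1 member whose groups did not overlap, against 1.87% of all tested genes (0.802% lower). It had 619.5, 626.6 and 645.7 cpm in the lowest, median and highest WT library and 557.9, 584.5 and 618.6 cpm in cmGch1 KO. The gap between the groups was 0.87 cpm. On average cmGch1 KO had 93.5% of the WT level (86.7 to 101.0%, log2 fold change -0.10 ± 0.05 SE, FDR = 0.526), and the log2 fold change was -0.11 without the pair with high Xist. The separation depended on the scaling. With cpm from library size alone the gap was -56.8 cpm, an overlap, and the log2 fold change was -0.02. This scaling also moved the median of all tested genes from -0.01 to 0.07, and Sod2 lay below that median under both scalings. With the size factors of DESeq2 the groups were 7.82 cpm apart. The Wald test of DESeq2 gave Sod2 an unadjusted p of 0.00793 and FDR = 0.137, and over all 22 alternatives the FDR ran from 0.132 to 0.931. Sod2 also had the smallest variation between WT libraries of the 10 genes, 1.5% of the mean, and 3.7% in cmGch1 KO.

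Sod1 encodes the copper-zinc enzyme of the cytosol and Sod3 the copper-zinc enzyme secreted into the extracellular matrix. Sod1 had 134.8, 147.9 and 177.2 cpm in WT against 112.5, 135.2 and 173.9 cpm in cmGch1 KO, 92.4% of WT (79.5 to 107.3%, FDR = 0.764). The ranges overlapped, with 3 cmGch1 KO libraries under the lowest WT library, and the log2 fold change of -0.11 was -0.12 without the pair with high Xist. Sod3 had 33.1, 40.0 and 43.1 cpm in WT against 38.3, 42.9 and 51.4 cpm in cmGch1 KO, 112.7% of WT (99.0 to 128.3%, FDR = 0.49), with 3 cmGch1 KO libraries over the highest WT library. Those 3 were replicates 2, 3 and 4, and without the pair with high Xist the log2 fold change of Sod3 was 0.10 in place of 0.17. The direction was therefore lower for the mitochondrial and cytosolic enzymes and higher for the extracellular one, and the interval of each included no difference.

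Cat encodes catalase, which splits hydrogen peroxide to water and oxygen, mainly in peroxisomes. It had 198.7, 212.1 and 220.7 cpm in WT against 196.7, 199.5 and 245.4 cpm in cmGch1 KO, 98.1% of WT (88.9 to 108.3%, FDR = 0.941). In cmGch1 KO, 5 libraries lay together between 196.7 and 203.3 cpm, at the low end of the WT range or just under it, and replicate 4 alone lay above it. The signs of Cat and of Gclm were not stable. Scaled by library size alone, which moved the median log2 fold change of all tested genes from -0.01 to 0.07, both had a higher mean in cmGch1 KO (0.05 and 0.07). The log2 fold change of Cat was 0.004 in place of -0.03 without the pair with high Xist.

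Within the cmGch1 KO group the 10 genes did not move as 1 block. cmGch1 KO replicate 2 was above all WT libraries for 4 genes (Hmox1, Txnrd1, Srxn1 and Sod3) and below all of them for 5 (Nqo1, Gclm, Sod1, Sod2 and Cat). Replicate 4 was above all WT libraries for Gclm, Txnrd1, Sod3 and Cat and below them for Sod1 and Sod2. Replicates 5 and 6 left the WT range least often, for 2 and 3 genes. The median of the 10 genes, taken in each library as log2 cpm minus the WT mean, stayed between -0.04 and 0.10 in both groups, with the highest values in WT replicate 4 (0.10) and cmGch1 KO replicate 4 (0.10). A library in which all 10 genes were raised or lowered together was thus not seen in either group.

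**Figure D4:**
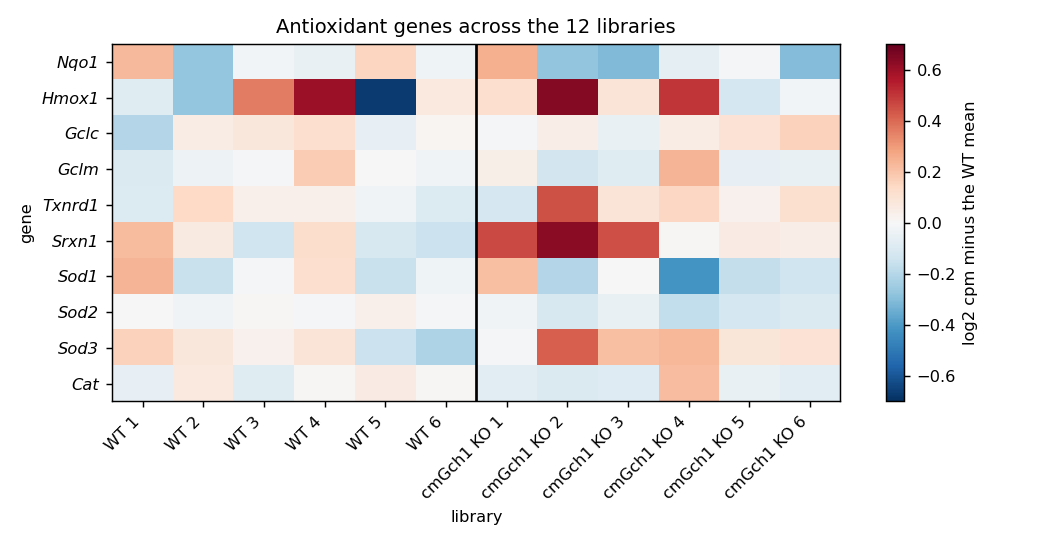
Log2 cpm of each antioxidant gene minus the gene's WT mean (colour, red for higher and blue for lower) in the 6 WT libraries and, right of the line, the 6 cmGch1 KO libraries. cmGch1 KO 2 is red for Hmox1, Txnrd1, Srxn1 and Sod3 and blue for Nqo1 and Sod1, and no column is of 1 colour.

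The genes around these enzymes were read from 9 lists with 122 genes, of which 103 could be tested. Of the 103, 56 had a lower and 47 a higher mean in cmGch1 KO, where 46.7% of all tested genes had a higher mean. An FDR of 0.05 was passed by 4, with 2 lower and 2 higher, against 1.12% of all tested genes. The groups did not overlap at 3 lower and 3 higher genes of the lists, against 1.87% of all tested genes. With the unadjusted p, 11 lower and 8 higher genes were under 0.05, 18.4% of the 103, against 11.5% of all tested genes. This count moved without the pair with high Xist. Among glutathione peroxidases and transferases it fell from 4 lower and 1 higher to 1 and 0, and it rose in no list. The share of all tested genes at that p without the pair is not given here. The 4 genes that passed were Ephx1, Pgd, Slc40a1 and Maob, from 4 different lists.

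Ephx1 was the clearest rise among listed targets of NRF2. It encodes microsomal epoxide hydrolase, which turns reactive epoxides into diols. WT libraries had 28.5, 31.9 and 34.8 cpm at the lowest, median and highest and cmGch1 KO libraries 40.3, 44.7 and 47.3 cpm, so the groups lay well apart. Ephx1 thus stood at 140.0% of WT (126.1 to 155.3%, log2 fold change 0.49 ± 0.07 SE, FDR = 0.00303), and the log2 fold change was 0.46 without the pair with high Xist (FDR = 0.0471, the highest of the 22 alternatives, which went down to 8.01e-09). It did not carry the list with it. Of the 9 tested genes of that list 7 had a higher mean, the median log2 fold change was 0.06, and Ephx1 alone passed the FDR threshold. Cbr3, Osgin1 and Akr1b8 were too low to be tested.

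NADPH, which thioredoxin reductase and glutathione reductase spend, comes in part from the pentose phosphate pathway. Pgd encodes 6-phosphogluconate dehydrogenase, the second NADPH-yielding enzyme of that pathway. It had 28.2, 29.3 and 30.9 cpm in WT against 33.9, 35.1 and 40.5 cpm in cmGch1 KO, with no overlap, 122.6% of WT (111.8 to 134.4%, FDR = 0.0366). This call was lost when any library but cmGch1 KO replicates 1 and 4 was left out, with an FDR between 0.0697 and 0.099 and a log2 fold change between 0.25 and 0.31. Without the pair with high Xist the values were 0.26 and FDR = 0.155, and with the replicate block 0.29 and FDR = 0.0503. Over all 22 alternatives the FDR ran from 0.000306 to 0.156. G6pdx, the gene of the first enzyme of the pathway, was chosen for mention after its values were seen: it had 3.30 to 6.06 cpm in WT and 6.15 to 8.05 cpm in cmGch1 KO, without overlap (log2 fold change 0.41, FDR = 0.209). Its exons share 418 bases with Ikbkg on the opposite strand. G6pdx lies on the X chromosome. Its cmGch1 KO mean was 6.50 cpm without the pair with high Xist and 6.85 cpm with it, against 5.13 cpm in WT. Among the 13 NADPH-supply genes 7 had a lower and 6 a higher mean, with a median of -0.02. Nadk2 (log2 fold change -0.22, FDR = 0.145, without overlap) and Me3 (-0.27, FDR = 0.167) were lower. Me2 (0.33, FDR = 0.191) was higher. They were also chosen for mention after their values were seen, as their FDR was under that of G6pdx. DESeq2 called Me3 and Nadk2. The other genes of the pathway, Pgls, Tkt and Taldo1, had log2 fold changes of 0.09, -0.02 and 0.05.

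Iron handling was represented by Slc40a1, the gene of ferroportin, the exporter of iron from cells. It had 19.5, 23.1 and 28.9 cpm in WT against 14.7, 16.6 and 21.03 cpm in cmGch1 KO, where 5 of 6 libraries lay under the lowest WT library. Slc40a1 thus stood at 71.6% of WT (61.4 to 83.5%, log2 fold change -0.48 ± 0.10 SE, FDR = 0.0399). The call stood without WT replicate 1 or cmGch1 KO replicate 1 or 4 and was lost without any 1 of the other 9 libraries, with an FDR between 0.0637 and 0.0952, and without the pair with high Xist (log2 fold change -0.42, FDR = 0.247, with 0.00157 to 0.247 over all 22 alternatives). The other 6 genes of the quinone, haem and iron list lay between -0.17 and 0.07, among them the ferritin genes.

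Maob, from the list of oxidant sources, fell most. It encodes monoamine oxidase B, an enzyme of the outer mitochondrial membrane that releases hydrogen peroxide when it oxidises amines. It had 52.3, 57.4 and 61.0 cpm in WT against 32.0, 36.8 and 45.5 cpm in cmGch1 KO, without overlap, 65.6% of WT (58.0 to 74.2%, log2 fold change -0.61 ± 0.08 SE, FDR = 0.00225). Maob lies on the X chromosome (X, 16709282 to 16817366 on GRCm38). Without the pair with high Xist its log2 fold change was -0.53 (FDR = 0.0182, the highest of the 22 alternatives, which went down to 3.28e-09). Of the 9 tested oxidant sources 6 had a higher mean, with a median of 0.13 (0.08 without the pair with high Xist), and none of the tested NADPH oxidase and nitric oxide synthase genes passed the test. Nox1, Nox4, Ncf4, Duox1, Duox2 and Nos1 were too low to be tested.

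**Figure D5:**
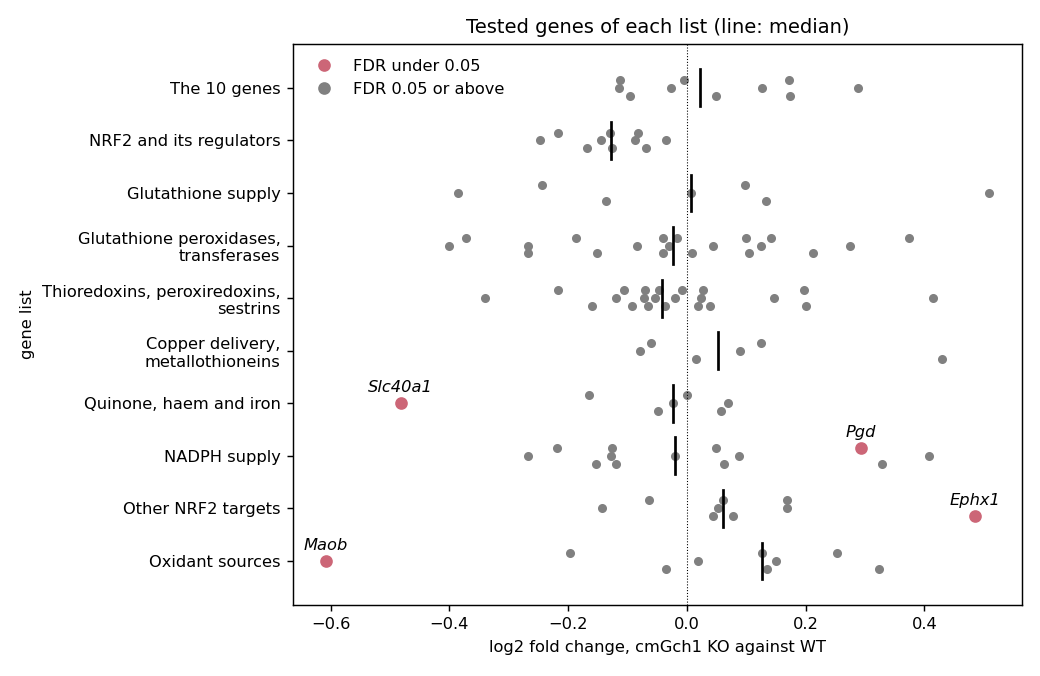
Log2 fold changes (cmGch1 KO over WT) for every tested gene of the 10 antioxidant genes and the 9 lists around them, 1 point per gene, with a black line for the median of the list and red for an FDR under 0.05. The 10 antioxidant genes spread on both sides of 0, the 10 points of NRF2 and its regulators all lie below 0 with a median of -0.13, and the named red points are Slc40a1, Pgd, Ephx1 and Maob.

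NRF2 and its regulators had 10 of 10 tested genes with a lower mean in cmGch1 KO, where 46.7% of all tested genes had a higher mean. Of these 10, 0 were past the FDR threshold and 1 was at an unadjusted p under 0.05. Their median log2 fold change was -0.13. With library size alone 8 were lower and 2 higher and the median was -0.05, but this scaling moved the median of all tested genes from -0.01 to 0.07 as well, so the list lay below it under both scalings. Without the pair with high Xist 9 of 10 were lower, with a median of -0.09. Nfe2l2, named here because it encodes NRF2 itself, had 59.0 ± 6.72 cpm in WT against 57.5 ± 9.63 cpm in cmGch1 KO (SD, n = 6 each; log2 fold change -0.04, FDR = 0.957). Keap1, the gene of its inhibitor, had the lowest p of the list. It had 63.5, 65.4 and 71.7 cpm in WT against 57.9, 60.3 and 61.5 cpm in cmGch1 KO, with no overlap, 90.5% of WT (83.7 to 97.8%, FDR = 0.263). With library size alone the groups overlapped and the log2 fold change went from -0.14 to -0.07. Without the pair with high Xist the log2 fold change of Keap1 was -0.16 (FDR = 0.557). Over all 22 alternatives Keap1 kept its direction and was not called, with an FDR between 0.0503 and 0.706. Keap1 exons share 510 bases with the antisense gene Gm16754.

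The lists of enzymes that work beside the 10 genes had no gene past the FDR threshold. Glutathione supply had 7 of 10 genes tested, with 3 lower and 4 higher, and its lowest p was that of Chac1, an enzyme that degrades glutathione, with 3.60 ± 1.2 cpm in WT against 5.05 ± 1.26 cpm in cmGch1 KO (SD, n = 6 each; log2 fold change 0.51, FDR = 0.358). Slc7a11, the cystine carrier that NRF2 controls, had 0 to 4 counts per library and was not tested. Glutathione peroxidases and transferases had 20 of 26 genes tested, with 11 lower and 9 higher. The lowest p among them was that of Gpx3, the secreted peroxidase, at 153.0 ± 35.2 and 198.4 ± 33.7 cpm (log2 fold change 0.37, FDR = 0.311). Its log2 fold change was 0.23 without the pair with high Xist (FDR = 0.93). Many of the transferases are near-identical paralogs, whose counts can be split between them. All 22 thioredoxin, peroxiredoxin, glutaredoxin, sestrin and methionine sulfoxide reductase genes were tested, with 14 lower and 8 higher, and Sesn2, a stress-induced regulator of mTORC1, had 5.17 ± 0.906 and 6.90 ± 0.852 cpm (log2 fold change 0.41, FDR = 0.191). Of the copper delivery and metallothionein genes 6 of 7 were tested, with 2 lower and 4 higher. Their lowest p was that of Mt2, at 7.21 ± 4.15 and 9.79 ± 3.95 cpm (log2 fold change 0.43, FDR = 0.736). That difference rested on the pair with high Xist, which had 13.3 and 16.0 cpm of Mt2, since without the pair the log2 fold change was 0.03 (FDR = 0.999).

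Genes with and without the promoter letters were called about equally often. Of the 8647 tested genes with a promoter entry 1215 held TGACNNNGC, and 1.07% of these were called against 1.1% of the 7432 without it. Their median log2 fold changes were -0.02 and -0.01. Among the 10 antioxidant genes, those with the letters had log2 fold changes of -0.0045 (Gclm), 0.13 (Txnrd1) and -0.11 (Sod1).

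Marker genes of the cell types in the ventricle were compared in the same way, and the summed levels of every list overlapped between the genotypes. The 8 cardiomyocyte markers, which are the defining genes of this tissue, summed to 68390 to 75500 cpm in WT and 60520 to 72480 cpm in cmGch1 KO, with a lower mean for 7 of 8 and 0 called. Of 8 tested macrophage markers 7 had a higher mean, 6 of them at an unadjusted p under 0.05 and 0 past the FDR threshold, and they summed with Fcgr1 to 241.6 to 374.3 cpm in WT and 310.5 to 439.3 cpm in cmGch1 KO. Without the pair with high Xist, or with sex-linked expression as a covariate, 8 of 8 had a higher mean and 3 were at an unadjusted p under 0.05. All 6 fibroblast markers had a higher mean, 1 at an unadjusted p under 0.05 (0 without the pair), with sums of 596.9 to 804.2 and 656.7 to 810.2 cpm, and 5 of 6 endothelial markers had a higher mean, with sums of 631.1 to 843.5 and 733.2 to 871.8 cpm. Of 5 smooth muscle markers Acta2 alone was called, as higher, a call lost without the pair with high Xist, while the other 4 had a lower mean (sums of 238.2 to 295.4 and 267.6 to 380.8 cpm). All 5 erythroid markers had a lower mean, with 0 called and sums of 393.2 to 1153 and 431.2 to 925.5 cpm. The 4 adipocyte markers were too low to test, at most 9.30 cpm in sum, and the 3 atrial markers summed to 7.66 to 284.0 and 45.3 to 188.3 cpm. All 8 cardiomyocyte markers were far above 0 in every library. In whole-tissue RNA fewer cells of a type and less RNA per cell cannot be told apart, and the part of these differences in the values of the antioxidant genes was not tested.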

How the data were processed

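Left ventricular RNA from 6 WT and 6 cmGch1 KO mice was analysed, grouped by the genotype in the labels. According to the methods and the submitters' processing notes, the authors made stranded (dUTP) paired-end libraries and used HISAT2, SAMtools, Picard and featureCounts; the annotation and the strand setting are not given in the sources used here. The authors deposited raw counts per Ensembl gene and a table of normalized values on a log2 scale, used only as an alternative. GENCODE M21 (GRCm38) gave symbols for 26545 of 26921 identifiers (98.6%).

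Counts were tested with edgeR 4.0.16 (R 4.3.3): TMM, a minimum of 3 cpm exceeded in 6 or more libraries, quasi-likelihood test on genotype, Benjamini-Hochberg adjustment over 11225 genes (FDR). Values are TMM-scaled cpm. The procedure was tested on simulated data. Alternatives used DESeq2 1.42.0, limma 3.58.1 and sva 3.50.0, other scalings, filters and covariates, and each library left out. The scaling checks on the Sod2 gap were added after seeing the data. Intervals cover the spread between these libraries. A count of 0, taken to allow 3 counts, stands for at most 0.151 cpm in cmGch1 KO replicate 2, for counting error only. The 30 pairs of libraries of 1 genotype had a chi-square per degree of freedom of 12.5 to 78.9, so none was the same library sequenced again. This measure cannot show whether each library came from another mouse.

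The 10 genes, the 9 lists and the markers were chosen with earlier results of these data known. Named genes are Gch1, the 10 genes, each listed gene with an FDR under 0.05 or otherwise the lowest p of its list, and Xist with 4 Y-linked genes; genes named outside this rule are marked or named for what they encode.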

Additional observations from a re-analysis of the deposited data

Results flagged for a closer look

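Single libraries were examined in 40 groups of 6 values, from the 10 antioxidant genes and the other named genes in each genotype, and 2 held a library far from its group by Dixon's criterion, which chance alone meets in about 1 of 20 groups. Gclm had 31.1 cpm in WT replicate 4, while the other 5 WT libraries had 25.6 to 27.4 cpm. Cat had 245.4 cpm in cmGch1 KO replicate 4, while the other 5 cmGch1 KO libraries had 196.7 to 203.3 cpm.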

How the results depend on the processing

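Under all 22 alternatives 0 of the 10 antioxidant genes were called in either direction, with a lowest FDR of 0.0695 for Srxn1 with 1 surrogate variable, and Nqo1, Hmox1, Gclc, Txnrd1, Srxn1, Sod1, Sod2 and Sod3 kept their direction. The median log2 fold change of the 10 genes went from 0.02 to 0.10 when scaled by library size alone, and leaving out 1 library gave -0.01 to 0.05. Gclm turned to 0.07 with library size alone, 0.048 with sex-linked expression as a covariate, 0.043 without both libraries with high Xist, and 0.001 to 0.034 without WT replicate 4 or cmGch1 KO replicate 2, 3, 5 or 6 (lowest over all libraries left out -0.058). Cat turned to 0.047, 0.007 and 0.004 under the first 3 of these. Ephx1, Maob and Gch1 were called under all alternatives.

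Over all genes 50 were lower and 76 higher. There were 116 higher by library size alone, 155 lower and 218 higher by DESeq2, 24 and 40 with the sex-linked covariate, 334 and 302 with 1 surrogate variable, and 18 and 16 without both libraries with high Xist. Leaving out 1 library gave 28 to 96 lower and 44 to 111 higher, with lower counts of 28, 33, 29 and 96 without WT replicates 3, 4 and 5 and cmGch1 KO replicate 1, and higher counts of 44, 44, 48 and 44 without WT replicates 3 and 5 and cmGch1 KO replicates 2 and 3. Of the listed pathway genes 2 were lower and 2 higher. Their lower calls were 1 by library size, 4 by DESeq2, 1 with the sex-linked covariate, 7 with a surrogate variable, 1 without both libraries with high Xist and 1 to 4 without 1 library. Their higher calls were 1 without a filter on low counts, 1 with the sex-linked covariate, 4 with a surrogate variable, 1 without both libraries with high Xist and 1 to 2 without 1 library. With the replicate block 76 genes were lower and 112 higher, and 3 pathway genes lower and 1 higher. Libraries with the same replicate number were not paired in the labels, their deviations correlated between -0.13 and 0.68, and 3 of 6 WT libraries matched best with their own number. The cause of these changes was not tested.

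The interval was narrowest for Sod2 (86.7 to 101.0% of WT) and widest for Hmox1 (83.9 to 151.1%), the genes with the most and the fewest counts. Between them the width did not follow the counts. Gclc, with 323 to 592 counts per library, had 92.9 to 115.2%, and Nqo1, with 978 to 2066 counts, had 78.7 to 108.7%.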
